A study of Mus musculus with 3 samples.

Results

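The genes described here are 7 transcription factors of endothelial cells: the SOXF factors Sox7, Sox17 and Sox18, the ETS factors Erg and Fli1, and the Krüppel-like factors Klf2 and Klf4. They were chosen by name, with earlier results of these data known, and their rows were read in all cells of every library. All 7 are listed in each of the 3 libraries, among 17126 genes listed in at least 1 library. The cells were the interstitial cells of mouse hearts, the non-muscle cells released with collagenase II and separated from cardiomyocytes by a slow spin. They were sorted by flow cytometry on surface Lin28, an RNA-binding protein, and surface cKit, a receptor tyrosine kinase that binds stem cell factor. The title of the series sets surface Lin28A beside cellular stress and senescence. The groups were Lin28-/cKit-, Lin28+/cKit- and Lin28+/cKit+ cells, with 1 droplet 3' library each. The sources used here do not state the age, strain, sex or number of the animals. Values of the 3 libraries are given below in that order.

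SOXF proteins bind DNA through an HMG box and act in the differentiation of blood and lymphatic vessels; Sox17 is known for its part in arterial identity. ERG and FLI1 bind the ETS core motif in enhancers of genes such as Cdh5 and keep adult endothelium in its endothelial state. KLF2 and KLF4 are zinc finger factors induced by laminar flow through the MEKK3, MEK5 and ERK5 kinases and MEF2, and they raise anticoagulant and vasodilator genes such as Thbd and Nos3. Both KLF genes are also made in fibroblasts, macrophages and lymphocytes, and both respond within minutes to many stimuli.

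RefSeq promoter windows (GRCm38.p6) could be matched for 3 of the 7 genes. Those of Klf2 and Klf4 are shown because these genes had the highest levels and their levels moved together across endothelial clusters. Each window holds the 250 bases before the RefSeq start, 5′ to 3′ on the strand of the gene, with capitals on a match on either strand to the MEF2 consensus motif, GGGCGG (GC box) or CACCC (a KLF core).
Klf2, chr8:72318812-72319061, plus strand: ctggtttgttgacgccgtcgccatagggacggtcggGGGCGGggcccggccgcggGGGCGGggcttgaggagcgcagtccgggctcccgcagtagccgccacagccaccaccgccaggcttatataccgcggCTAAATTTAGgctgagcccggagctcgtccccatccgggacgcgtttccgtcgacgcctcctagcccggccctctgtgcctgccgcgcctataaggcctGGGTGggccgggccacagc
Klf4, chr4:55532476-55532725, minus strand: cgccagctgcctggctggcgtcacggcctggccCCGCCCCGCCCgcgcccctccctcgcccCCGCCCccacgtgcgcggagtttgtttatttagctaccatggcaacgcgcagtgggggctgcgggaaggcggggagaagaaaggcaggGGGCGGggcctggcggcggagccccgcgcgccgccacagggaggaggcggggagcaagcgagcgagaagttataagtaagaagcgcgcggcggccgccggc
The Klf2 window has a MEF2 match at -118, and 2.92% of the 32851 promoter windows of this length have one. It has GC boxes at -214 and -195 and a KLF core at -19, against 32.7% and 52.0% of windows. In the GENCODE annotation used for gene positions below, Klf2 starts at 72319033, inside this window, and the KLF core lies past that start. The Klf4 window has 4 GC boxes, at -217, -212, -189 and -101, the first pair overlapping, and neither a MEF2 match nor a KLF core. Neither window holds ACAAT, a SOX core, or CCGGAA, an ETS core, which 27.7% and 12.0% of windows have. These matches describe letters in these windows and say nothing about binding.

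The libraries held 3976, 681 and 1176 cells and 34031955, 7401174 and 10400648 UMIs, unique molecular identifiers that each count 1 captured transcript. No cell barcode was shared by the Lin28-/cKit- and Lin28+/cKit- libraries, 8 were shared by the Lin28-/cKit- and Lin28+/cKit+ libraries and 1 by both Lin28+ libraries. Levels are summed UMIs per 1000000 UMIs (CPM) with 95% Poisson intervals. UMIs of a 3' library do not scale with transcript length, so levels of different genes are compared as they stand. Each group is a single library, so no test could be made, every interval covers counting error only, and library and group cannot be told apart. In a summed level, fewer cells of a type and less RNA per cell cannot be told apart either.

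Clusters named from marker genes gave 926, 243 and 429 endothelial-like cells, with median depths of 4066, 7679 and 5590 UMIs. The 10 endothelial markers were all present and summed to 7633, 7815 and 7873 CPM. The endothelial-like cells fell into 4 clusters, obtained without the 7 factors among the clustering genes. A capillary-like cluster, led by Car4 and Cldn5, held 416, 157 and 258 cells. An arterial-like cluster, led by Hey1, Sema3g and Gja4, held 275, 30 and 101 cells, which is 29.7%, 12.3% and 23.5% of the endothelial-like cells. An endocardial-like cluster, led by Npr3 and Cytl1, held 108, 11 and 31. The last, led by Prss23, Col13a1 and Lrg1 with 127, 45 and 39 cells, is called the Prss23 Col13a1 cluster. Lrg1 and Col13a1, 2 of 4 markers of an Lrg1 Col13a1 type, were at least 2-fold above other endothelial-like cells there. So were Nr2f2 and Selp, 2 of 6 venous markers, but the endocardial-like cluster had 5 venous markers at that fold. Fibroblast-like cells numbered 2758, 33 and 10, macrophage-like cells 25, 334 and 659, and 5.46%, 6.31% and 5.36% of cells stayed unnamed.

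The 3 SOXF genes and Erg lay mostly in endothelial-like cells. In endothelial-like cells, Sox17 (chromosome 1, 4490931 to 4497354, minus strand) had levels of 141 CPM (130 to 153), 136 CPM (121 to 154) and 166 CPM (151 to 182). Its level in Lin28-/cKit- fibroblast-like cells was 1.11 CPM, 127-fold lower (88.8 to 189). In macrophage-like cells it was at 0.867 and 2.22 CPM in the Lin28+/cKit- and Lin28+/cKit+ libraries, 157-fold (60.8 to 582) and 74.6-fold (45.5 to 132) below their endothelial-like cells. Endothelial-like cells thus held 88.1%, 94.4% and 92.7% of the Sox17 UMIs of the libraries. An unnamed cluster led by Rgs5, Higd1b and Kcnj8 (45, 12 and 8 cells), in which endothelial markers were also raised, had 95.1, 77.8 and 161 CPM. In its Lin28+/cKit- cells 7 of the 8 UMIs came from 1 cell. Thinned to 2000 UMIs per cell, 22.2%, 21.8% and 23.2% of endothelial-like cells had a Sox17 UMI, with 97, 9 and 19 shallower cells left out, against 0.0752% of Lin28-/cKit- fibroblast-like cells. Without thinning the endothelial shares were 31.5%, 38.7% and 38.9%, and that of the fibroblast-like cells, at a median depth of 10136 UMIs, was 0.943%.

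In endothelial-like cells, Sox18 (chromosome 2, 181669836 to 181671640, minus strand) had levels of 147 CPM (135 to 159), 321 CPM (297 to 347) and 185 CPM (169 to 202), and the 3 intervals did not overlap. It was at 1.36 CPM in Lin28-/cKit- fibroblast-like cells and at 4.55 and 2.36 CPM in the macrophage-like cells of the Lin28+ libraries. The unnamed cluster led by Rgs5, Higd1b and Kcnj8 had 47.6, 107 and 223 CPM, from 9, 11 and 18 UMIs. After thinning, 25.2% (22.3% to 28.3%), 46.2% (39.6% to 52.8%) and 29.5% (25.1% to 34.2%) of endothelial-like cells had a Sox18 UMI, and unthinned shares were 41.9%, 77.8% and 55.9%. In fibroblast-like and macrophage-like cells the thinned shares were 0.413% in the Lin28-/cKit- library and 1.46% and 0.163% in the Lin28+ libraries.

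Sox7 (chromosome 14, 63943673 to 63950732, plus strand), the third SOXF gene, had 78.9 CPM (70.7 to 87.9), 123 CPM (108 to 139) and 97.9 CPM (86.4 to 111). It had the lowest endothelial level of the family, and the ratio to other classes was smaller too. Lin28-/cKit- fibroblast-like cells had 6.60 CPM (5.68 to 7.62), 12.0-fold (9.97 to 14.4) below endothelial-like cells. Over the 6 fibroblast-like clusters of that library it ranged from 2.67 CPM, from 3 UMIs in 109 cells, to 8.57 CPM. Of the SOXF UMIs in these fibroblast-like cells 72.8% (66.9% to 78.2%) were Sox7, against 21.6% (19.5% to 23.7%) in endothelial-like cells of the same library. In macrophage-like cells of the Lin28+ libraries Sox7 was at 2.60 and 1.81 CPM.

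**Figure D1:**
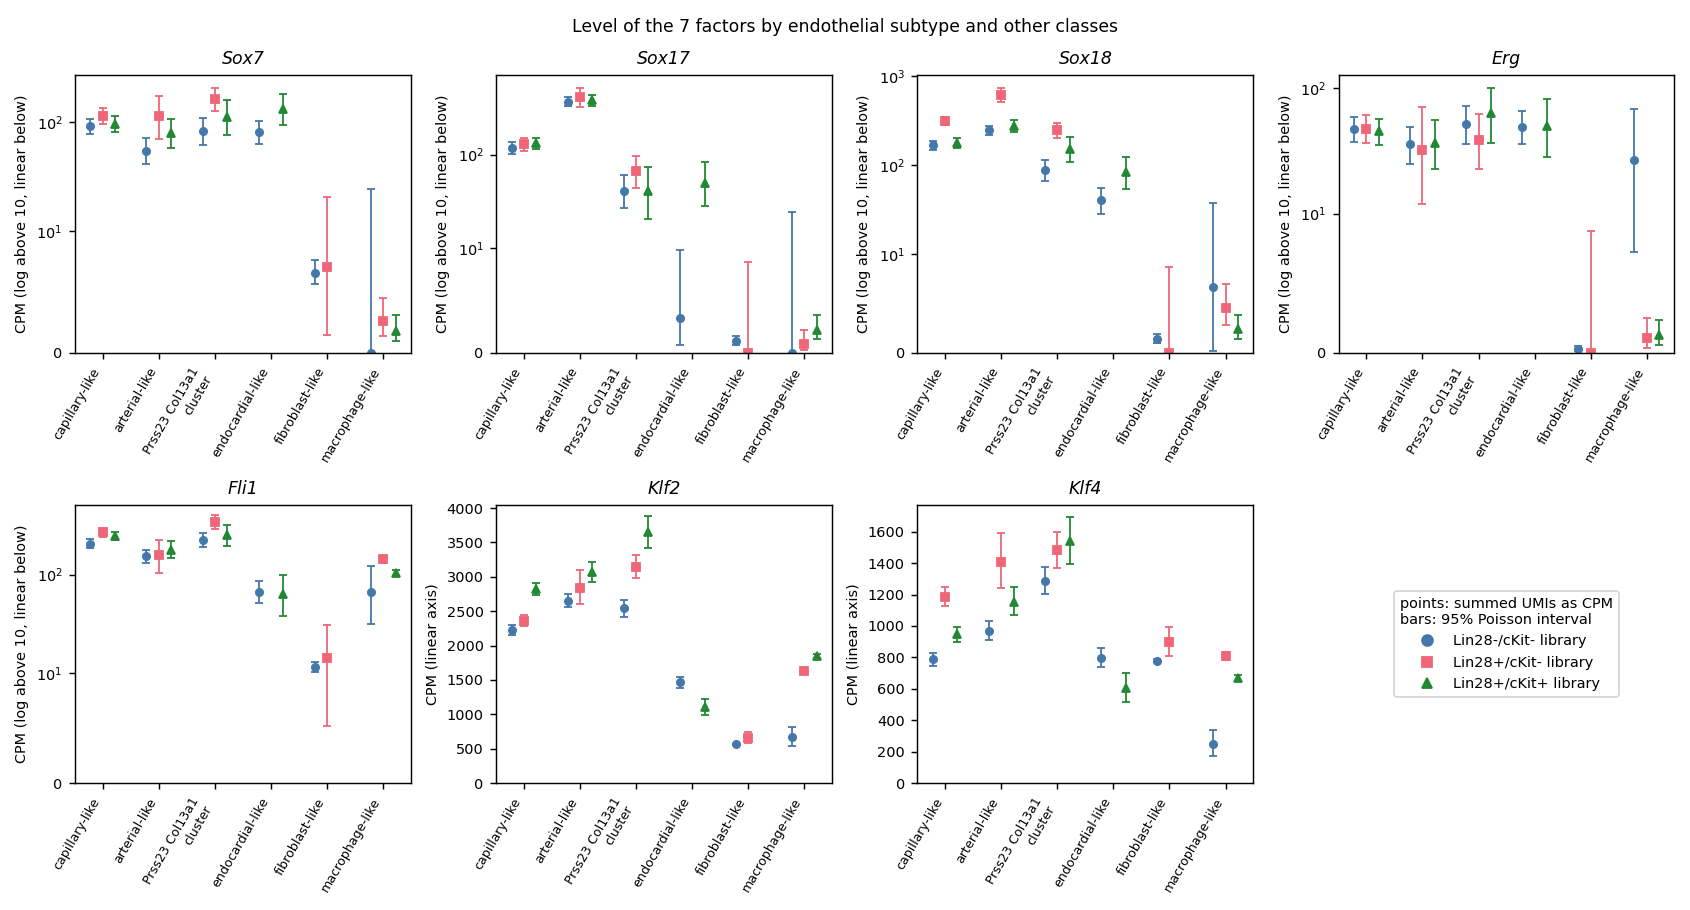
Level (CPM) of each of the 7 factors in 4 endothelial clusters, fibroblast-like and macrophage-like cells, by library; points are summed UMIs, bars 95% Poisson intervals, and sums of fewer than 20 cells are left out. Sox17 peaks in arterial-like cells at 366 to 410 CPM, the SOXF genes and Erg lie below 10 CPM in fibroblast-like and macrophage-like cells except for Erg in the 25 macrophage-like cells of the Lin28-/cKit- library (4 UMIs), and the Klf4 level of the Lin28-/cKit- fibroblast-like cells (778 CPM) lies beside that of the capillary-like and endocardial-like cells of that library.

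The SOXF genes were divided unequally among the endothelial clusters. Arterial-like cells had the highest Sox17 of every library, 366 CPM (330 to 406) in the first, 410 CPM (323 to 514) in the second and 377 CPM (328 to 431) in the third. Capillary-like cells had 117, 129 and 132 CPM, so the arterial-like level was 3.13-fold (2.62 to 3.74), 3.18-fold (2.39 to 4.19) and 2.86-fold (2.35 to 3.48) higher. The Prss23 Col13a1 cluster had 41.3, 66.4 and 40.9 CPM, below capillary-like cells in each library. Endocardial-like cells of the Lin28-/cKit- library had 3 Sox17 UMIs in 108 cells, 3.36 CPM (0.693 to 9.82). The 11 endocardial-like cells of the Lin28+/cKit- library had 0, and of the 15 UMIs in the 31 cells of the Lin28+/cKit+ library 14 came from 1 cell. Lymphatic endothelial-like cells (19, 17 and 13 cells) had 0 Sox17 UMIs, with upper 95% Poisson limits of 44.4, 30.7 and 35.0 CPM.

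Sox18 followed the same order with smaller steps. Arterial-like cells had 245 CPM (216 to 278), 616 CPM (508 to 740) and 275 CPM (234 to 322), and were above capillary-like cells 1.47-fold (1.23 to 1.75), 1.97-fold (1.59 to 2.43) and 1.55-fold (1.27 to 1.90). Capillary-like cells had 167, 312 and 177 CPM and the Prss23 Col13a1 cluster 87.2, 245 and 152 CPM. In the Lin28+/cKit+ library the capillary-like cells were at 1.16 times the level of that cluster, with an interval that includes 1 (0.836 to 1.66). Endocardial-like cells of the Lin28-/cKit- and Lin28+/cKit+ libraries had 40.3 and 83.7 CPM, and in the 11 such cells of the Lin28+/cKit- library 10 of the 16 UMIs came from 1 cell. Unlike Sox17, Sox18 was found in lymphatic endothelial-like cells, at 72.3, 199 and 104 CPM.

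Sox7 did not follow that order. In the Lin28-/cKit- library arterial-like cells were lowest, at 54.6 CPM (41.1 to 71.1), beside 91.3 CPM in capillary-like, 82.6 CPM in Prss23 Col13a1 and 80.7 CPM in endocardial-like cells, and the last 3 did not differ beyond counting error. The capillary-like level was 1.67-fold (1.22 to 2.32) above the arterial-like level in that library, and 1.00-fold (0.631 to 1.67) and 1.22-fold (0.868 to 1.74) in the others. In the Lin28+/cKit- library the Prss23 Col13a1 cluster had 163 CPM of Sox7 against 114 CPM in capillary-like cells, 1.43-fold more (1.06 to 1.91). In the Lin28+/cKit+ library endocardial-like cells were 1.65-fold (1.05 to 2.60) above arterial-like cells. Sox7 made up 8.20%, 9.95% and 10.8% of the SOXF UMIs of arterial-like cells, 24.3%, 20.5% and 23.7% in capillary-like cells and 39.1%, 34.3% and 36.6% in the Prss23 Col13a1 cluster. In endocardial-like cells it was 64.9% (55.2% to 73.7%) of 111 UMIs in the Lin28-/cKit- library and 49.4% (37.9% to 60.9%) of 79 in the Lin28+/cKit+ library.

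**Figure D2:**
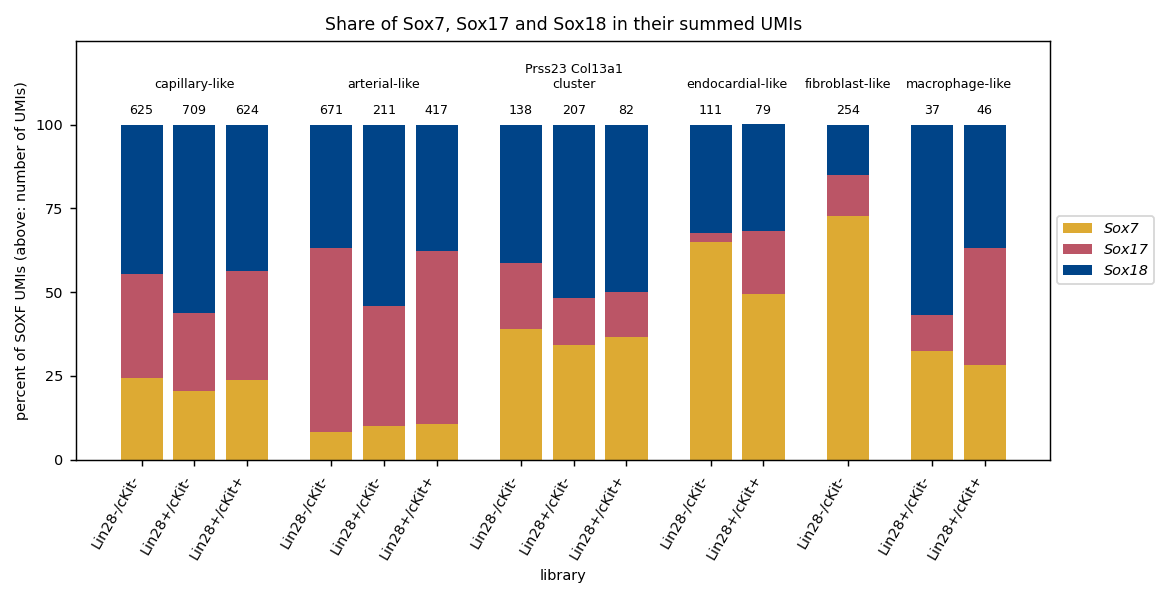
Percent of the summed Sox7, Sox17 and Sox18 UMIs that each gene contributes, by cluster or class and library; numbers above the bars are UMIs, and sums of fewer than 20 cells or 20 UMIs are left out. Sox17 takes 36.0% to 55.0% in arterial-like cells and Sox7 takes 49.4% to 64.9% in endocardial-like cells.

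Erg (chromosome 16, 95359169 to 95586593, minus strand) had the lowest level of the 7 and the most even one. Endothelial-like cells had 45.8 CPM (39.5 to 52.7), 42.9 CPM (34.3 to 53.1) and 46.0 CPM (38.2 to 54.8), and the 3 intervals overlapped widely. Among the endothelial clusters of at least 20 cells Erg ranged from 32.4 CPM in the 30 arterial-like cells of the Lin28+/cKit- library to 63.2 CPM in the Prss23 Col13a1 cluster of the Lin28+/cKit+ library. In no library did the interval of a ratio between 2 endothelial clusters exclude 1. In fibroblast-like cells Erg was low, with 7 UMIs in 2758 Lin28-/cKit- cells, 183-fold (87.3 to 462) below endothelial-like cells. Macrophage-like cells of the Lin28+ libraries had 1.08 and 1.25 CPM. The unnamed cluster led by Rgs5, Higd1b and Kcnj8 had 5.28, 77.8 and 24.8 CPM of Erg. These came from 1, 8 and 2 UMIs, and 5 of the 8 came from 1 cell. The 25 macrophage-like cells of the Lin28-/cKit- library had 4 Erg UMIs, 26.6 CPM (7.24 to 68.1). At the thinned depth 8.69%, 8.55% and 9.51% of endothelial-like cells had an Erg UMI, and unthinned 18.3%, 28.8% and 23.1%.

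Fli1 (chromosome 9, 32422204 to 32542861, minus strand) was shared with blood cells. Endothelial-like cells had 167 CPM (155 to 180), 274 CPM (252 to 298) and 212 CPM (195 to 230), and the 3 intervals were apart. Macrophage-like cells of the Lin28+ libraries had 142 CPM (132 to 154) and 104 CPM (96.9 to 112), only 1.93-fold (1.72 to 2.16) and 2.03-fold (1.82 to 2.27) lower. Endothelial-like cells held 60.7%, 43.3% and 41.5% of all Fli1 UMIs. Fibroblast-like cells of the Lin28-/cKit- library had 11.6 CPM, 14.4-fold (12.6 to 16.4) below endothelium. An annotated antisense gene that overlaps Fli1, Gm27201, had 3 UMIs in the Lin28+/cKit- library and 0 in the others.

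Within endothelium Fli1 was lower in arterial-like than in capillary-like cells, at 153, 157 and 179 CPM against 206, 269 and 246 CPM. The ratio was 0.742 (0.610 to 0.900), 0.581 (0.384 to 0.850) and 0.726 (0.578 to 0.906), opposite in direction to Sox17. The Prss23 Col13a1 cluster had 226, 339 and 249 CPM, which was 1.10 (0.900 to 1.34), 1.26 (1.03 to 1.53) and 1.01 (0.768 to 1.31) times the capillary-like level, so it was above capillary-like cells beyond counting error only in the Lin28+/cKit- library. Endocardial-like cells had 67.2 CPM (51.3 to 86.5) and 63.6 CPM (38.3 to 99.4) in the Lin28-/cKit- and Lin28+/cKit+ libraries, 0.326 (0.244 to 0.430) and 0.258 (0.154 to 0.409) of the capillary-like level. The 11 endocardial-like cells of the Lin28+/cKit- library had 271 CPM from 22 UMIs, 11 of them from 1 cell.

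Klf2 (chromosome 8, 72319033 to 72321656, plus strand) was the most abundant of the 7. Endothelial-like cells had 2214 CPM (2169 to 2259), 2528 CPM (2459 to 2599) and 2765 CPM (2703 to 2829). Other classes had it too. Macrophage-like cells of the Lin28+ libraries had 1627 and 1843 CPM, and the B cell-like cells of the Lin28-/cKit- and Lin28+/cKit- libraries (20 and 10 cells) had 2362 and 1984 CPM. Lin28-/cKit- fibroblast-like cells had 566 CPM (557 to 575), 3.91-fold (3.81 to 4.01) below endothelial-like cells. Among the 4 clusters of endothelial-like cells Klf2 was lowest in endocardial-like cells, at 1467, 1111 and 1102 CPM, and lymphatic endothelial-like cells, apart from these, had 1518, 972 and 1377 CPM. Capillary-like cells had 2219, 2361 and 2821 CPM, 1.51-fold (1.42 to 1.61), 2.13-fold (1.72 to 2.65) and 2.56-fold (2.29 to 2.87) more. Arterial-like cells exceeded capillary-like cells by 1.20-fold (1.14 to 1.26), 1.20-fold (1.09 to 1.32) and 1.09-fold (1.03 to 1.15). The Prss23 Col13a1 cluster had 2542, 3147 and 3644 CPM, the highest of the 4 clusters in both Lin28+ libraries, at 1.11 (1.00 to 1.23) and 1.19 (1.10 to 1.28) times the arterial-like level.

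Klf4 (chromosome 4, 55527143 to 55532466, minus strand) had 911 CPM (882 to 940), 1262 CPM (1213 to 1312) and 1012 CPM (974 to 1050), again over endothelial-like cells. Fibroblast-like cells of the Lin28-/cKit- library had nearly as much, 778 CPM (768 to 789), so the endothelial ratio was 1.17 (1.13 to 1.21). Only 14.4% of the Klf4 UMIs of that library came from endothelial-like cells. Fibroblast-like clusters differed among themselves, from 341 CPM in the cluster led by Hba-a1 and Hbb-bs to 995 CPM in the cluster led by Tnfaip6 and Scara5. Klf2 over the same fibroblast-like clusters ranged from 439 to 869 CPM in another order. Macrophage-like cells of the Lin28+ libraries had 807 and 666 CPM of Klf4, and B cell-like cells of the Lin28-/cKit- library had 199 CPM. Among the 4 clusters of endothelial-like cells Klf4 was highest in the Prss23 Col13a1 cluster, at 1288, 1482 and 1539.5 CPM, and the arterial-like interval overlapped it in the Lin28+/cKit- library. Lymphatic endothelial-like cells, apart from these 4, had 1337, 1504 and 978 CPM.

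Klf2 made up 70.8% (70.1% to 71.6%), 66.7% (65.6% to 67.8%) and 73.2% (72.3% to 74.1%) of the summed Klf2 and Klf4 UMIs of endothelial-like cells. In fibroblast-like cells of the Lin28-/cKit- library it was 42.1% (41.6% to 42.6%), and the 33 fibroblast-like cells of the Lin28+/cKit- library had 42.2% (38.4% to 46.1%). Fibroblast-like and endothelial-like cells thus differed beyond counting error in both libraries. Macrophage-like cells had 73.0% (64.8% to 80.2%, 25 cells), 66.8% and 73.4%, and their interval overlapped that of the endothelial-like cells in every library. In level, however, these 25 Lin28-/cKit- cells had 665 CPM (541 to 808) of Klf2 and 246 CPM (173 to 339) of Klf4. Both lay below the macrophage-like cells of the Lin28+ libraries. B cell-like cells of the Lin28-/cKit- library stood at 92.2% (87.7% to 95.5%).

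**Figure D3:**
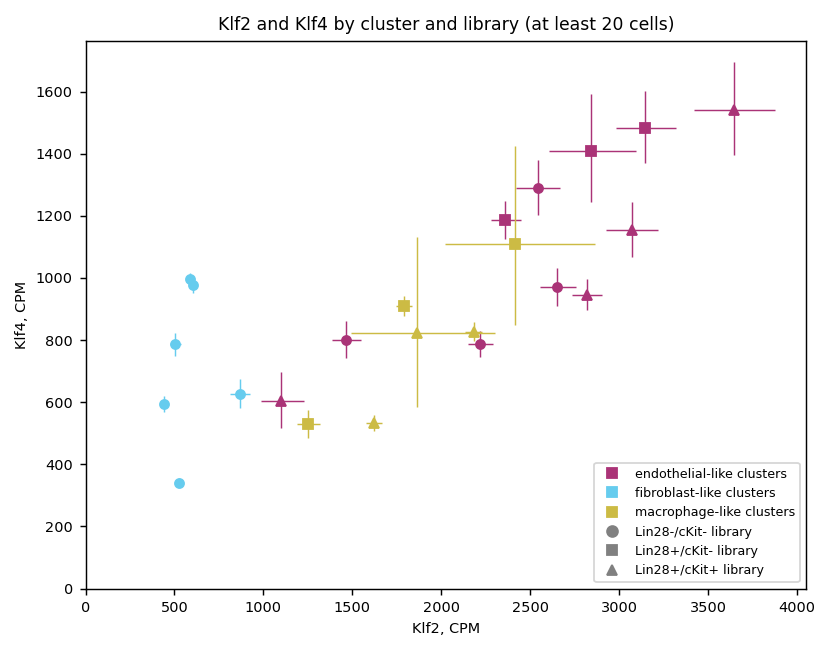
Klf2 (horizontal, CPM) and Klf4 (vertical, CPM) in each cluster and library of at least 20 cells; colours are classes, symbols libraries, bars 95% Poisson intervals. Fibroblast-like clusters span 341 to 995 CPM of Klf4 at 439 to 869 CPM of Klf2, while endothelial-like clusters extend to 3644 CPM of Klf2.

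Within single endothelial-like cells, thinned to 2000 UMIs, at least 1 SOXF gene was found in 48.1% (44.7% to 51.6%), 63.7% (57.2% to 69.8%) and 54.6% (49.7% to 59.5%) of cells. Sox17 and Sox18 were found together in 7.36%, 11.1% and 7.32%, and Erg with Fli1 in 2.77%, 3.85% and 3.66%. Klf2 and Klf4 were found together in 63.1%, 75.2% and 65.4%, and 6.15%, 2.99% and 3.90% had neither. At this depth a cell without a UMI cannot be called negative.

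The 7 factors were also compared with all other genes over 7 sums of a class in a library with at least 30 cells each, as Pearson r of log2(CPM + 1) among 10584 genes. These points share libraries and differ mainly by class. The 3 genes most like Sox17 were C130074G19Rik, Gpr4 and Sema7a, those most like Sox18 were Uhrf2, Ccdc85a and Zfp366, and those most like Sox7 were Chmp5, Impdh1 and Mllt6. Cd300lg, Wscd1 and Als2cl were most like Erg, and Map3k1, Lrch1 and Rassf3 most like Fli1. Gnai2, H2-D1 and Rassf3 were most like Klf2, and Actr1a, Sh3pxd2a and Dcun1d1 most like Klf4. All 21 values of r exceeded 0.97, but the largest of 10584 values over 7 points are bound to be high. They show no particular link between the genes. Erg and Sox17 had r = 0.995 with each other, whereas Klf2 and Klf4 had 0.42. Over 11 sums of an endothelial cluster in a library, a choice made after the data were seen, Klf2 and Klf4 had r = 0.86, Klf2 and Fli1 0.85, and Sox17 and Sox18 0.88. Over the same points Erg had -0.67 with Sox17, at counts as low as 6 UMIs of Erg and 3 UMIs of Sox17 a point, and 14 of the 15 Sox17 UMIs of 1 endocardial-like point came from 1 cell. The genes most like Sox17 there, again the largest of 10584 values, were Pdgfd, Plk2 and Plscr2. Those most like Sox18 were Jdp2, S1pr1 and Ankrd13a.

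The sort on Lin28 was examined by comparing endothelial-like cells of the Lin28+/cKit- and Lin28-/cKit- libraries. A gene was called when it had at least 20 UMIs in the pair, a ratio of at least 1.5 in either direction and a 95% interval that excludes 1. Sox18, Fli1 and Sox7 were called higher and none of the 7 lower, where 11.3% of the 10307 genes measured were called, 4.03% higher and 7.24% lower. That is 3 of the 7. Sox18 had a ratio of 2.19 (1.96 to 2.45), Fli1 of 1.64 (1.46 to 1.84) and Sox7 of 1.55 (1.31 to 1.84). Klf4 was at 1.39 (1.32 to 1.46), below the fold, and Klf2 at 1.14 (1.10 to 1.18). Sox17 at 0.969 (0.836 to 1.12) and Erg at 0.938 (0.718 to 1.22) had intervals that include 1. The median log2 ratio of the 7 was 0.47, beside -0.04 over all genes measured. Because the 7 were chosen with earlier results of these data known, these contrasts with all genes are not a test.

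The endothelial-like cells of the 2 libraries had unequal shares of subtypes, with 44.9% capillary-like and 29.7% arterial-like in the Lin28-/cKit- library against 64.6% and 12.3% in the Lin28+/cKit- library, so each subtype was compared on its own. Sox18 was called higher in capillary-like cells (1.87, 1.60 to 2.19), arterial-like cells (2.51, 1.99 to 3.15) and the Prss23 Col13a1 cluster (2.81, 2.02 to 3.95). Sox7 was called higher in the Prss23 Col13a1 cluster (1.97) and in arterial-like cells (2.08, from 21 and 55 UMIs). In arterial-like cells 9 of the 21 UMIs came from 1 cell, and without the highest cell of each library, a choice made after the data were seen, the ratio was 1.36 (0.662 to 2.59) and no longer called. Sox7 had 1.24 (0.984 to 1.57) in capillary-like cells. Fli1 was called in none of the 3, with ratios of 1.31, 1.02 and 1.497, the last just under the fold. Klf4 was called higher in capillary-like cells at 1.51 (1.40 to 1.62), and had 1.45 and 1.15 in the others. Each of these comparisons called 2 of the 7 genes, both higher, where 7.62%, 7.68% and 7.23% of all genes measured were called and 3.39%, 3.42% and 3.95% were called higher. Sox17 had 1.10, 1.12 and 1.61, with intervals that include 1. With equal weight for the 3 subtypes Sox18 was at 2.35, Sox7 at 1.70, Klf4 at 1.34 and Fli1 at 1.31, and the Fli1 call was lost.

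Other values moved with this pair. Endothelial-like cells of the Lin28-/cKit- library carried 2688 CPM of 10 fibroblast markers, none of them at 0, against 198 CPM in the Lin28+/cKit- library, where only Tcf21 was at 0. The 10 macrophage markers were at 28.7 CPM, 5 of them at 0, against 255 CPM with none at 0. Without endothelial-like cells in which markers of other classes exceeded 0.5% of the UMIs, the ratio was 1.93 for Sox18, 1.57 for Sox7 and 1.49 for Fli1, which was then no longer called. Depth differed as well, and over cells of 4000 to 12000 UMIs, a choice made after the data were seen, the ratios were 2.25 for Sox18, 1.65 for Fli1 and 1.38 for Sox7, which was then no longer called. The 22 immediate early genes, induced within minutes of many stimuli, summed to 15369 CPM against 18242 CPM, and their part in the Klf4 ratio was not tested.

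**Figure D4:**
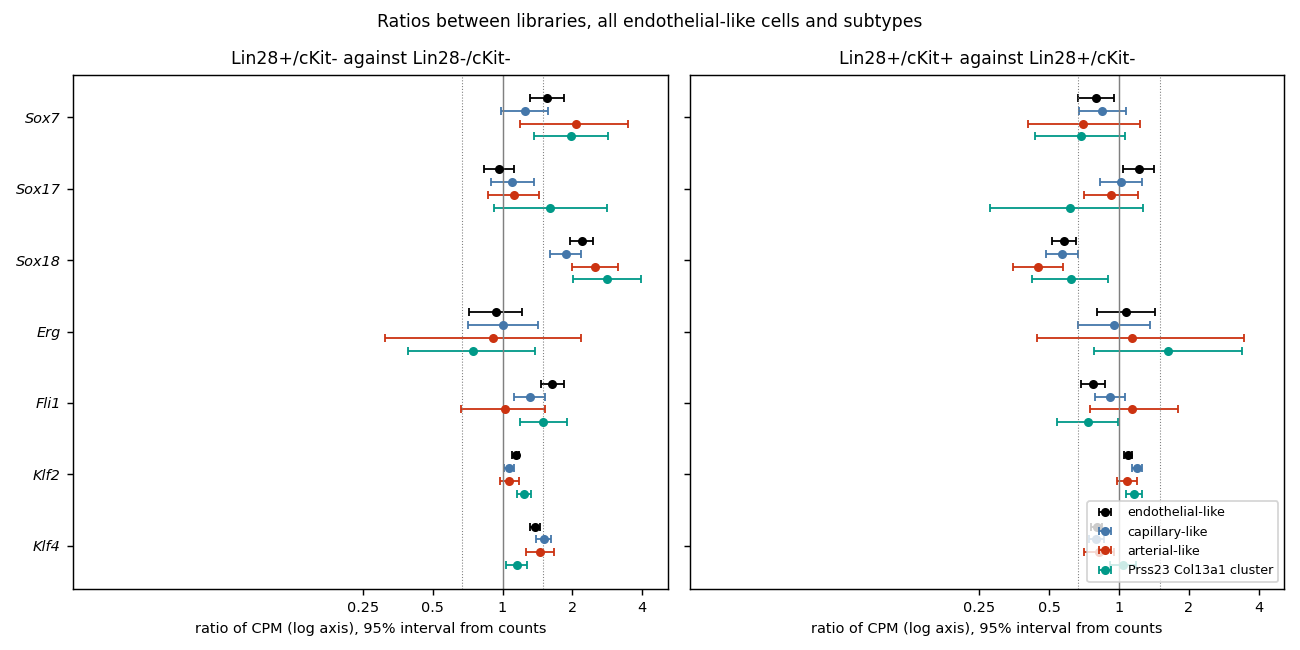
Ratio of CPM between libraries for each factor (log axis), in all endothelial-like cells (black) and in 3 subtypes (colours), with 95% counting intervals; dotted lines mark 1.5-fold in either direction. Sox18 is above 1.5 in every row of the left panel and below 1 in every row of the right panel.

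The sort on cKit among Lin28+ cells was examined by comparing the Lin28+/cKit+ with the Lin28+/cKit- library, which also serves in the comparison above. Sox18 was the only one of the 7 called, at 0.577 (0.512 to 0.650), where 6.79% of the 9652 genes measured were called, 3.39% higher and 3.4% lower. It was lower in capillary-like cells (0.568, 0.485 to 0.664), arterial-like cells (0.447, 0.349 to 0.574) and the Prss23 Col13a1 cluster (0.622, 0.423 to 0.900), and none of the other 6 was called in these, with 5.46%, 5.84% and 6.57% of all genes called and 3.1%, 2.93% and 3.71% called lower. In all endothelial-like cells Fli1 was at 0.772 (0.685 to 0.871), Sox7 at 0.798 (0.667 to 0.954) and Klf4 at 0.802 (0.759 to 0.847). Klf2 was at 1.09 (1.06 to 1.13), Sox17 at 1.22 (1.04 to 1.42) and Erg at 1.07 (0.805 to 1.43). Over all endothelial-like cells the Lin28+/cKit- library was thus the highest of the 3 for Sox18, Fli1, Sox7 and Klf4. In each of the 3 subtypes this held beyond counting error only for Sox18. In capillary-like cells, arterial-like cells and the Prss23 Col13a1 cluster Fli1 had ratios of 0.914 (0.788 to 1.06), 1.14 (0.750 to 1.79) and 0.735 (0.542 to 0.987) in this pair. Klf4 had 0.798, 0.819 and 1.04, and the intervals of Sox7 all included 1. The Sox17 level of all Lin28+/cKit- endothelial-like cells was below that of the Lin28+/cKit+ library beyond counting error but not below that of the Lin28-/cKit- library. The share of arterial-like cells, where Sox17 was highest, was the smallest of the 3 in the Lin28+/cKit- library, and its part in these levels was not tested.

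Macrophage-like cells of the same pair gave ratios of 0.732 (0.658 to 0.814) for Fli1, 0.825 (0.790 to 0.861) for Klf4 and 1.13 (1.10 to 1.17) for Klf2. The largest cluster of these cells differed, the cluster led by C1qa and Lyz2 (180 of 334) in the Lin28+/cKit- library and the cluster led by H2-Aa and Cd74 (324 of 659) in the Lin28+/cKit+ library. The first cluster also held 272 cells of the Lin28+/cKit+ library, and the second 87 of the Lin28+/cKit- library. Within the first, taken alone after the data were seen, the ratios were 0.767 (0.673 to 0.874) for Fli1, 0.909 (0.864 to 0.956) for Klf4 and 1.22 (1.18 to 1.26) for Klf2. Within the second they were 0.837 (0.674 to 1.04), 1.01 (0.915 to 1.11) and 1.30 (1.22 to 1.38), so the Klf4 ratio of the class was not found in that cluster. A shallow cluster led by Lilr4b, Cxcl2 and Rgs1 held 59 Lin28+/cKit- and 46 Lin28+/cKit+ cells. Its ratios were 0.772 (0.582 to 1.02) for Klf2 and 0.744 (0.482 to 1.13) for Klf4, with intervals that include 1. Over the whole macrophage-like class none of the 6 factors with at least 20 UMIs was called, with 6.31% of all genes called. Whether such differences belong to the sorted cells or to the libraries cannot be told apart.

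Related genes were read from 9 lists, chosen with earlier results of these data known. Of the other ETS factors 2 of 14 measured were called higher and 1 lower in Lin28+/cKit- against Lin28-/cKit- endothelial-like cells, beside 4.03% higher and 7.24% lower of all genes measured in this pair. Elk4, a partner of serum response factor, was at 115 against 72.1 CPM (1.60, 1.34 to 1.90) and Etv6, an ETS repressor, at 32.8 against 21.8 CPM (1.51, 1.08 to 2.09). Etv1 was the gene called lower (0.219), from 4 and 39 UMIs. The list's median log2 ratio was 0.19. In Lin28+/cKit+ against Lin28+/cKit- cells Etv6 was called lower at 0.592 (0.403 to 0.866), 1 of 14 beside 6.79% of all genes called, and the median was -0.13. The other KLF factors counted 0 called of 10 and 0 of 9, with Klf9 at 0.807 and Klf7 at 1.15 in the first pair. Sox4 and Sox13, the other SOX genes with at least 100 UMIs, were at 1.10 and 1.03 in the first pair and 0.777 and 1.05 in the second, not called. Of 5 other SOX genes measured 1 was higher in the first pair, Sox12 from 15 and 14 UMIs, and 2 were lower, Sox5 from 1 and 31 UMIs and Sox9 from 0 and 33, and 0 of 3 were called in the second. Sox9 is among the 10 leading genes of a fibroblast-like cluster, and the fibroblast markers given above moved the same way in these cells, whose part in the Sox9 call was not tested.

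Genes named as KLF2 or KLF4 targets counted 0 higher, 3 lower and 11 neither of 14 in the first pair, where 7.24% of all genes were lower. The list does not separate genes that the factors raise from genes that they lower. The 3 were Cyp1b1 (10.1 against 22.0 CPM), Plat (46.5 against 77.3), tissue plasminogen activator, and Slco2a1 (13.6 against 21.6), a prostaglandin transporter. Thbd, thrombomodulin, was at 1.09 (0.974 to 1.22) and Nos3, endothelial nitric oxide synthase, at 0.844 (0.723 to 0.984), neither called. In the second pair Edn1, endothelin-1, was called higher at 1.74 (1.23 to 2.49) and Cyp1b1 at 2.26 (1.34 to 3.95), 2 of 14 beside 3.39% of all genes higher, and 0 were lower. Cyp1b1 lay almost wholly in endocardial-like cells, at 102, 247 and 204 CPM beside 0.601, 0 and 0 CPM in capillary-like cells. Endocardial-like cells were 11.7%, 4.53% and 7.23% of the endothelial-like cells, and the part of these shares in the Cyp1b1 calls was not tested. Genes upstream of the KLF factors counted 0 called of 17 in the first pair and 1 of 17 in the second, Ccm2 at 1.67 (1.17 to 2.41), a scaffold that restrains MEKK3.

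SOXF targets and partners counted 0 called of 14 in the first pair, with Cdh5 at 1.26 (1.19 to 1.34) and Cldn5 at 1.30 (1.22 to 1.38), and 1 higher of 13 in the second, Gja5, the gap junction protein connexin 40, from 24 and 4 UMIs. ERG and FLI1 targets counted 2 higher and 1 lower of 20, beside 11.3% of all genes called, then 0 of 20, beside 6.79%. Vwf, von Willebrand factor, was lower at 0.437 (0.387 to 0.491) in the first pair, and its level was 1567, 1481 and 1045 CPM in endocardial-like cells but 3.60, 3.13 and 3.90 CPM in capillary-like cells. Set against all clusters, Vwf was also a leading gene of the Prss23 Col13a1 cluster. That cluster was 13.7% of the endothelial-like cells of the Lin28-/cKit- library and 18.5% of those of the Lin28+/cKit- library. Apln, the ligand apelin, was called higher at 1.55 (1.09 to 2.20), and its level was 40.2, 43.1 and 43.5 CPM in capillary-like cells beside 19.9, 9.16 and 3.72 CPM in the Prss23 Col13a1 cluster. Cxcr4, a chemokine receptor, was called higher at 2.01 (1.21 to 3.33) from 33 and 35 UMIs. Other endothelial transcription factors counted 1 higher and 5 lower of 27 in the first pair, where 4.03% of all genes were higher and 7.24% lower. Prdm1 was higher (2.13, from 24 and 24 UMIs), and Hey2 (0.152), Heyl (0.344) and Smad6 (0.610) were lower. Meis2 (0.282) and Foxc1 (0.523) were lower too, and both were highest in endocardial-like cells, at 176, 148 and 228 CPM and at 242, 247 and 298 CPM. In the second pair 3 were higher (Meis2, Hey1 and Foxc1) and Nr2f2 was lower, 4 of 25 beside 6.79% of all genes called. Hey1 and Gja5 were higher in the arterial-like cluster than in other endothelial-like cells. That cluster was 12.3% of the endothelial-like cells of the Lin28+/cKit- library and 23.5% of those of the Lin28+/cKit+ library. Its part in the Hey1 and Gja5 calls was not tested. The part of cluster shares in the Vwf, Apln, Meis2 and Foxc1 calls was not tested either. Of 21 immediate early genes 1 was higher and 2 lower in the first pair, again beside 11.3% of all genes, with a median log2 ratio of 0.27. The lower were Nr4a3 (8 and 38 UMIs) and Myc (3 and 35). Zfp36, which destabilises cytokine mRNAs, was at 1.76 (1.64 to 1.89) there. In the second pair 0 of 19 were called. The other lists had median log2 ratios of -0.04 to 0.07 in the first pair, and the 9 lists had medians of -0.36, over 3 SOX genes, to 0.01 in the second.

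**Figure D5:**
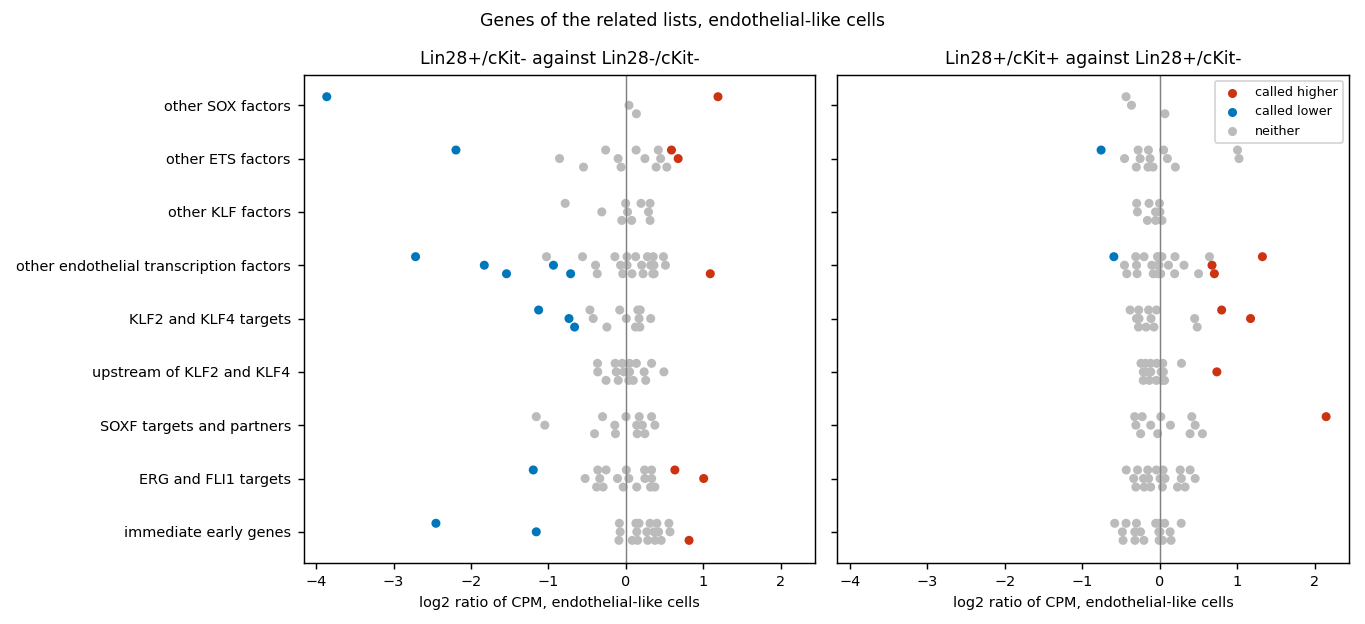
log2 ratio of CPM in endothelial-like cells for each gene of 9 related lists with at least 20 UMIs, Lin28+/cKit- against Lin28-/cKit- (left) and Lin28+/cKit+ against Lin28+/cKit- (right); red and blue points were called higher and lower, grey neither, and Sox9, with 0 UMIs in 1 library, is not drawn. Other KLF factors have no called gene in either panel, and the 3 called KLF2 and KLF4 targets of the left panel lie below 0.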

How the data were processed

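The values deposited per gene and cell are natural logs (ln) of 1 plus the UMIs of a gene per 10000 UMIs of its cell. The submitters' processing notes name Cell Ranger, the genome build mm10 and Seurat 4.0.2. How cells were filtered is not stated there. With the log undone, 100% of values were whole multiples of the value of 1 UMI in their cell within 0.01, so UMI counts were recovered and summed. The analysis had been planned for count tables and was kept, on the recovered counts.

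Cells of the 3 libraries were clustered together with scanpy 1.11.5 and leidenalg 0.10.2 (2000 variable genes, 30 components, 15 neighbours, resolution 1), leaving out Kit and the 7 factors. A cluster could be named when at least 3 markers of a type stood at least 4-fold above their median over clusters. These had to be no fewer than the detected markers of the type that did not. Some clusters that met this stayed unnamed, because another type was raised as well or because shallow cells lacked that type's markers at the top. They include clusters led by Kdr, Tcf15 and Rbp7 (87, 16 and 37 cells) and by Ttn, Tnnc1 and Myl2 (21, 8 and 11 cells). With 9 and 10 of 10 endothelial markers raised, both were left out of the endothelial-like cells. No barcode shared by libraries was removed. Scrublet marked 5, 9 and 7 cells, too few to be counted as having worked, so no doublets were removed.

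Intervals are exact at 95% (Poisson for levels, conditional binomial for ratios, Clopper-Pearson for shares; scipy 1.17.1). They count UMIs as independent, and no p-value was computed. The ratio call was tested on simulated data, which with 1 library per group cannot tell whether a call belongs to the group or to the library. The members and lists were chosen with earlier results of these data known. Named genes are the 7 factors, up to 4 genes of a list with at least 100 UMIs and the largest ratios, and the 3 genes most like each factor; Nos3 and the genes called from fewer UMIs were named after their values were seen. Gene positions were taken from GENCODE vM21 (mm10). Promoter sequences of Sox7, Sox17, Sox18 and Fli1 and protein sequences were not used here. A gene of a list is not reported here and was left out of the counts.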

Additional observations from a re-analysis of the deposited data

How the results depend on the processing

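The count of called factors within endothelial-like cells, 3 for Lin28+/cKit- against Lin28-/cKit- and 1 for Lin28+/cKit+ against Lin28+/cKit-, was recomputed under other scalings, clusterings, cell sets and thresholds. With a fold of 2 in place of 1.5 it was 1 and 0, and with 1000 variable genes, which left 147 and 281 endothelial-like cells in the Lin28+ libraries, it was 4 and 2, Sox17 being called lower (0.658) and then higher (1.90). Among genes of the related lists 21 were called in the first pair and 9 in the second. With a fold of 2 these were 13 and 3, and with at least 100 UMIs the first was 11. The Sox18 ratio stayed between 1.87 and 2.37 in the first pair and between 0.516 and 0.608 in the second under all 15 alternatives that recompute it. The Sox7 and Fli1 calls of the first pair were each lost under 3 of the 15, with ratios of at least 1.24 and 1.31. No factor that was called changed direction. All 21 shares of endothelial-like cells with a UMI of a factor moved with the thinning depth. No paired analysis was possible because each group has 1 library and the labels pair none.

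Depth limits Erg most, with 85 to 193 UMIs in the endothelial-like cells of a library, and Sox17 outside endothelium. Arterial-like and endocardial-like cells of the Lin28+/cKit- library, 30 and 11 cells, give the widest intervals. Rebuilt cluster names may differ from those of the submitters.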
